A study of Mus musculus with 5 samples.

Results

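Keratins are the proteins of the intermediate filaments of epithelial cells. Every gene symbol made of Krt and a number, with at least 1 UMI (unique molecular identifier, 1 per captured RNA molecule) in either gene expression library, was taken as a member, and genes of keratin-associated proteins were left out. Of 49 such symbols 40 were members, among 32245 symbols in all. Of the members 21 were type I and 18 type II keratins, and Krt222 belongs to neither type. The other 9 symbols, Krt9, Krt13, Krt39, Krt40, Krt72, Krt73, Krt76, Krt82 and Krt84, had 0 UMIs in both libraries. Krt6a and Krt6b end in a letter, are no members, and are given only beside Krt16, Krt17 and the type II total.

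The animals were BALB/c mice, 6 weeks old, and all carried subcutaneous CT26, a mouse colon carcinoma line. One group received 100 µg of the antibody 9H10 against CTLA-4, an inhibitory receptor of T cells, into the peritoneum on days 5, 8 and 11 after inoculation, and the control group received phosphate-buffered saline (PBS) on those days. Material collected on day 13 was dissociated with a kit for mouse tumours and run as 5' droplet libraries with a target of 5000 cells. The labels call the material only tissue and give neither the number of mice per library nor whether overlying skin was included. There was 1 library per group, so differences between the groups have no replicates behind them and were not tested, and every interval is a 95% interval of counting error only. UMIs of a keratin often came from few cells, which makes these intervals too narrow.

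A keratin filament is built from pairs of 1 type I and 1 type II protein, so keratinocytes express both types together. In mouse skin, Krt5 and Krt14 are the keratins of the basal layer, Krt1 and Krt10 replace them as cells leave it, and Krt16, Krt17, Krt6a and Krt6b are known from wounded epidermis and hair follicles. Krt8, Krt18, Krt19 and Krt20 belong to single-layered epithelia such as that of the gut, and the hair root has a set of its own. Nearly all type I genes lie on chromosome 11 and the type II genes on chromosome 15, with the type I gene Krt18 among the type II genes. Of the members 21 map to chromosome 11, Krt222 among them, and 19 to chromosome 15.

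Depth differed: 19989467 UMIs over 4186 anti-CTLA-4 barcodes (median 3147.5 each), against 86478313 UMIs over 5649 control barcodes (median 6827 each). After filtering, 3946 anti-CTLA-4 and 5234 control cells were kept, and 19 kept barcodes occurred in both libraries, none of them keratinocyte-like. Cells were grouped into classes with all keratin genes left out of the clustering and named only from markers that are no keratins. The keratinocyte-like class held 99 anti-CTLA-4 and 168 control cells. Its markers were there: Sfn, a cell cycle inhibitor of stratified epithelia, had a UMI in 96.0% of anti-CTLA-4 and 90.5% of control keratinocyte-like cells, and Trp63, the master regulator of stratified epithelia, in 51.5% and 47.0%. The tumour-like class, named from genes such as Crabp1 in clusters that lack the leukocyte gene Ptprc, held 20 anti-CTLA-4 and 2560 control cells. Any statement on tumour-like anti-CTLA-4 cells therefore rests on 20 cells.

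Keratin RNA was concentrated in the keratinocyte-like class. All members together made 208 of every 10000 UMIs in anti-CTLA-4 and 366 in control keratinocyte-like cells. In the tumour-like class they made 0.892 per 10000 UMIs in the anti-CTLA-4 and 3.78 in the control library, and in the T cell-like class 0.354 and 1.62. For 34 of the 40 members the class with more UMIs than any other was the keratinocyte-like one, for 3 the tumour-like one (Krt12, Krt20 and Krt80), and for 1 each the T cell-like (Krt83), neutrophil-like (Krt86, 4 of 9 UMIs) and plasma cell-like one (Krt222, 9 of 21). Krt80 counts as tumour-like by the size of that class: per 10000 UMIs it was at 0.954 in anti-CTLA-4 and 1.52 in control keratinocyte-like cells, against 0.0469 and 0.0694 in tumour-like cells. Of the 22 members with at least 50 UMIs in kept cells, 18 peaked in the keratinocyte-like class. The heatmap by class shows this as 1 bright column in each panel, with Krt10, Krt14 and Krt5 coloured faintly in most other classes.

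**Figure D1:**
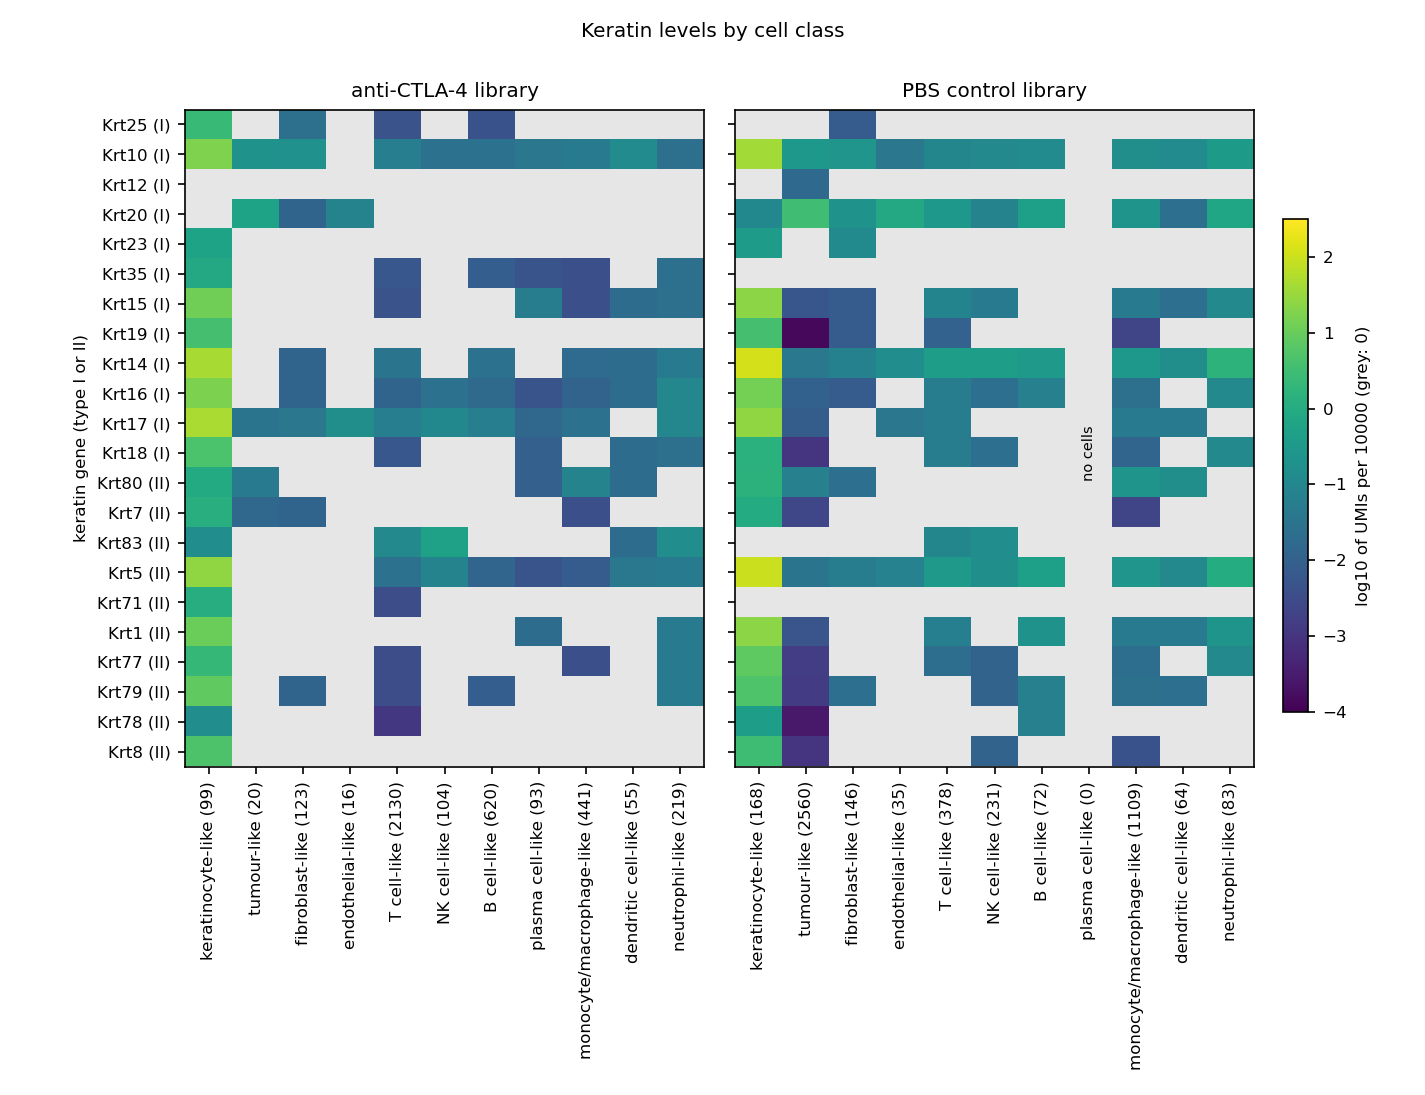
Keratin levels by cell class (number of cells in parentheses), anti-CTLA-4 panel left of the PBS control panel, as log10 of UMIs per 10000 UMIs of the class (colour) with grey for 0 UMIs. Most rows are highest in the keratinocyte-like columns, while Krt20 is highest in tumour-like control cells at 3.30 per 10000.

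Within keratinocyte-like cells, Krt17 and Krt14 led the anti-CTLA-4 library and Krt14 and Krt5 the control. These levels count molecules at their 5' end and are not divided by gene length. Krt14, the type I basal keratin, stood at 45.6 UMIs per 10000 (44.1 to 47.1) in anti-CTLA-4 and 117 (115 to 120) in control keratinocyte-like cells, with a UMI in 67.7% and 76.8% of cells. Krt5, its type II partner, stood at 25.7 (24.6 to 26.9) and 95.6 (93.8 to 97.4). Krt17 stood at 46.6 (45.1 to 48.2) and 26.8 (25.8 to 27.8). The order thus differed between the libraries at its top, with Krt17 and Krt14 of the anti-CTLA-4 library inside each other's interval.

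Next in order came the differentiation keratins and Krt15. Krt10, the type I suprabasal keratin, stood at 17.4 UMIs per 10000 in anti-CTLA-4 and 40.2 in control keratinocyte-like cells, and Krt1, its type II partner, at 11.1 and 23.8. Krt16 stood at 16.4 (15.5 to 17.3) and 13.6 (13.0 to 14.4). Krt15, a keratin of basal cells and of the hair follicle bulge, stood at 12.2 and 23.6, which in the anti-CTLA-4 library overlapped the interval of Krt1 and in the control (22.7 to 24.5) also did. Krt79, known from the upper hair follicle and the sebaceous duct, stood at 8.40 and 5.10, and Krt77, a type II keratin of sweat ducts and epidermis, at 2.10 and 7.85.

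Partner keratins were found in the same cells. Krt5 and Krt14 had UMIs together in 48 of 99 anti-CTLA-4 and 111 of 168 control keratinocyte-like cells, and 22 and 29 cells had neither. Krt1 and Krt10 were together in 22 and 52 cells, and Krt1 without Krt10 was found in 1 and 10 cells. Basal and suprabasal keratins also shared cells: Krt14 and Krt10 were together in 25 anti-CTLA-4 and 52 control cells. For comparison, Krt5 or Krt14 had a UMI in 2.11% of anti-CTLA-4 T cell-like cells (median 3305 UMIs per cell) and 15.9% of those of the control (median 1942), so in the control a single basal keratin UMI is not read as expression. The median keratinocyte-like cell had 6187 UMIs in the anti-CTLA-4 and 5138.5 in the control library.

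Clustering the keratinocyte-like cells again, still without keratins, gave 9 subclusters, numbered 0 to 8. Subclusters 0 and 3 were highest for basal markers that are no keratins and are together called basal-marker-high (26 anti-CTLA-4 and 56 control cells). This is no cell type name for subcluster 0, whose leading genes Mmp13, Serpinb2, Clcf1, Nrg1 and Fst are no basal markers and which held 24 of the 26 anti-CTLA-4 and 21 of the 56 control cells. Subcluster 6, led by the cornified envelope genes Asprv1, Lor and Cnfn, is suprabasal-like (6 and 15 cells). Subcluster 7, led by the lipid synthesis genes Fa2h, Elovl4 and Scd3, is sebocyte-like (11 and 7 cells). The others stayed unnamed, and the libraries filled them unequally: subcluster 3 held 2 anti-CTLA-4 and 35 control cells, subcluster 4 held 0 and 30, and subcluster 8 held 10 and 0. Subcluster 5 (13 and 17 cells) was shallow, with medians of 1121 and 1920 UMIs.

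**Figure D2:**
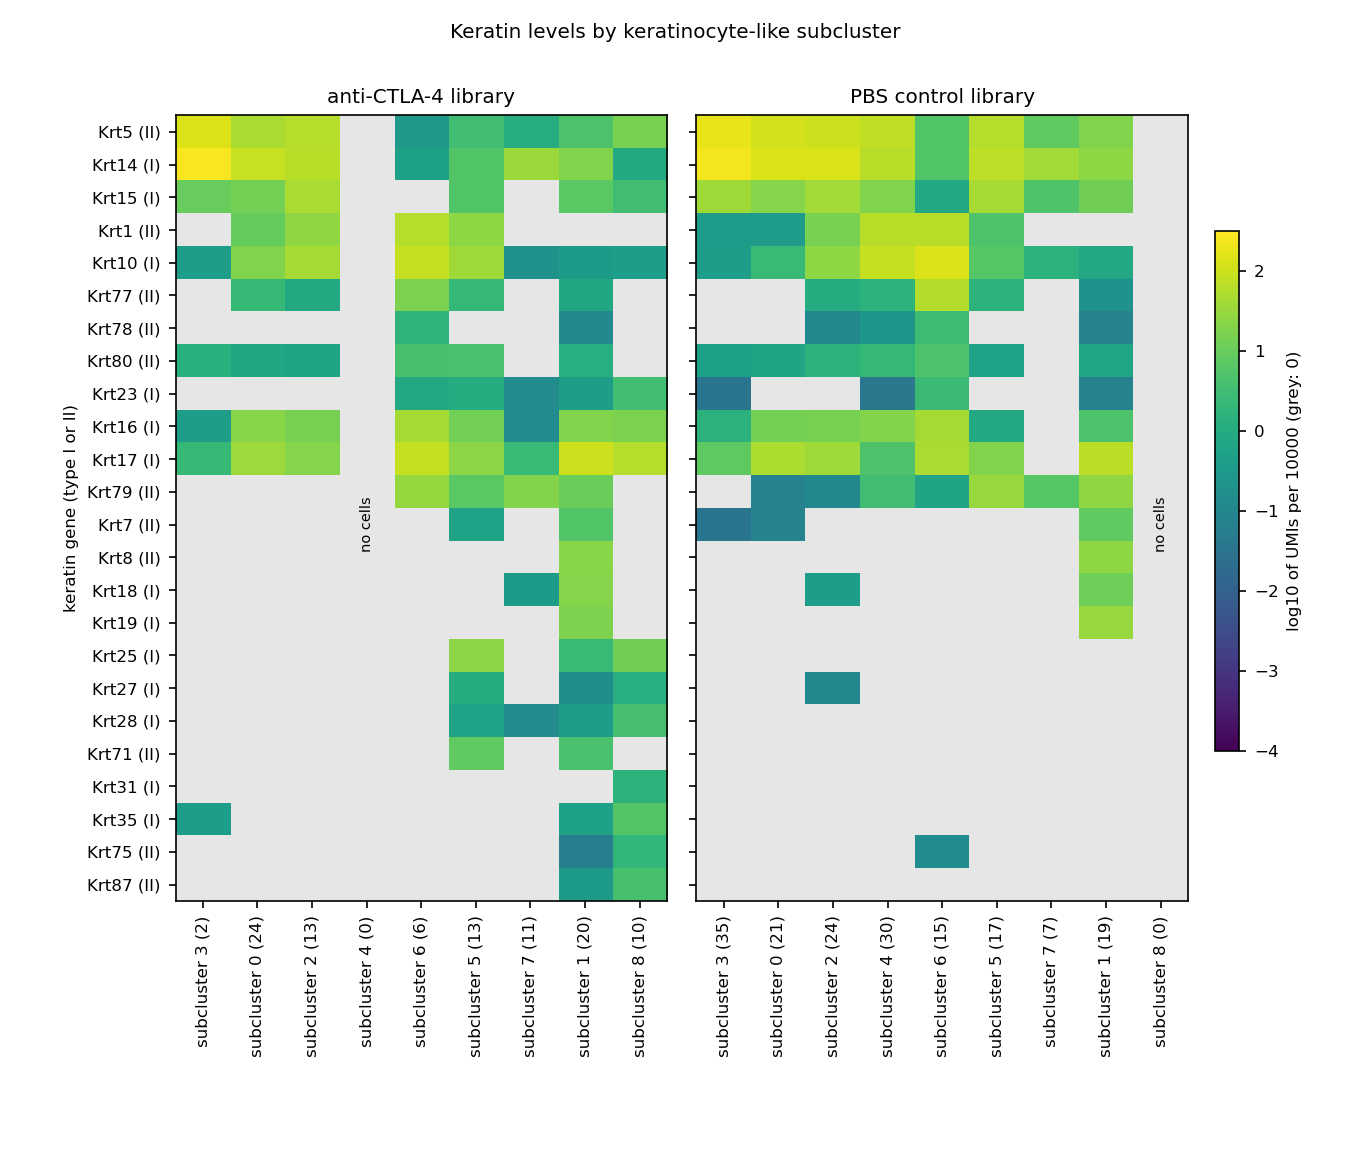
Keratin levels in the keratinocyte-like subclusters (number of cells in parentheses), anti-CTLA-4 panel left of the PBS control panel, as log10 of UMIs per 10000 UMIs (colour) with grey for 0 UMIs. Krt5 and Krt14 are bright in subclusters 3, 0 and 2, Krt1, Krt10 and Krt77 bright in subcluster 6, Krt8 and Krt19 are coloured in subcluster 1 alone, and hair keratins in anti-CTLA-4 subclusters 8, 1 and 5.

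Krt14 and Krt5 were highest in subcluster 3, which is basal-marker-high, although neither gene had a part in the grouping. Krt14 stood at 278 UMIs per 10000 in the 2 anti-CTLA-4 and 250 in the 35 control cells of subcluster 3, and at 88.1 and 145 in subcluster 0. In suprabasal-like cells it stood at 0.49 in the anti-CTLA-4 and 5.45 in the control library. Krt5 stood at 140 and 190 in subcluster 3, 47.9 and 114 in subcluster 0, and 0.33 and 5.59 in suprabasal-like cells. Subcluster 2, which stayed unnamed, held both too, with Krt14 at 61.9 and 133 and Krt5 at 59.0 and 99.7. Its anti-CTLA-4 Krt5 was thus above that of subcluster 0. Subcluster 4, found only among control cells, held both kinds, with Krt14 at 62.2, Krt5 at 74.4, Krt10 at 83.1 and Krt1 at 63.0 per 10000. Sebocyte-like cells kept Krt14, with a UMI in every cell and 33.0 per 10000 in the anti-CTLA-4 and 40.1 in the control library, while their Krt5 stood at 1.11 and 8.13. All members together made 56.8 and 61.0 per 10000 there, the lowest sum of any subcluster in either library.

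The suprabasal-like cells of each library were set against its basal-marker-high cells. A gene with at least 20 UMIs over both subsets was counted as higher or lower when its ratio passed 2-fold either way, and with 0 UMIs on 1 side the ratio was taken at a floor of 3 counts there. In the anti-CTLA-4 library 7 of 10 members tested were higher and 3 lower, beside 9.42% higher and 17.7% lower among 1772 genes. In the control 8 of 11 members were higher and 3 lower, beside 13.5% and 32.9% among 3817 genes. Members with 0 UMIs in 1 subset passed the minimum through the other alone. With UMIs in both, 6 of 8 anti-CTLA-4 members were higher and 2 lower, and 6 of 9 higher and 3 lower in the control. The median log2 ratio of all members tested was 1.79 in the anti-CTLA-4 library (1.80 with genes at 0 taken at the floor) against -0.10 for all genes, and 3.13 in the control (3.15) against -0.38.

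The 3 lower members were the same in both libraries: Krt5, Krt14 and Krt15. Krt14 had 3 UMIs in suprabasal-like against 2061 in basal-marker-high cells of the anti-CTLA-4 library and 77 against 9406 in the control, ratios of 0.00444 and 0.0249. Krt5 had 2 against 1095 UMIs in the anti-CTLA-4 library and 79 against 7204 in the control. Krt15 had 0 against 253 UMIs in the anti-CTLA-4 library, and in the control its ratio was 0.0259 (0.0133 to 0.0454).

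Krt1, Krt10, Krt16, Krt17, Krt77 and Krt80 were higher in suprabasal-like cells of both libraries. Krt10 had 502 UMIs in suprabasal-like against 311 in basal-marker-high cells of the anti-CTLA-4 library, a ratio of 4.93 (4.27 to 5.69), and 2062 against 46 in the control, a ratio of 137 (102 to 187). Krt1 had 370 against 154 UMIs in the anti-CTLA-4 library, a ratio of 7.33 (6.06 to 8.91), and 891 against 16 in the control, a ratio of 170 (104 to 298). The suprabasal levels of Krt1 were close, at 60.8 per 10000 in anti-CTLA-4 and 63.1 in control suprabasal-like cells, and the basal-marker-high levels were 8.30 and 0.372. In subcluster 3 alone, Krt1 stood at 0 UMIs in 2 anti-CTLA-4 cells and 0.363 per 10000 in 35 control cells, and in subcluster 0 at 9.44 and 0.392. The suprabasal-like levels rested largely on single cells: 1 cell held 205 of the 370 anti-CTLA-4 Krt1 UMIs, and 1 cell 527 of the 891 control ones. For Krt10, 1 suprabasal-like cell held 349 of the 502 anti-CTLA-4 UMIs and 1 held 713 of the 2062 control ones. Few cells may carry the other anti-CTLA-4 levels too, since single keratinocyte-like cells held 205, 147 and 113 of 869 Krt1 UMIs. For Krt10 they held 349, 234 and 111 of 1365. The log2 ratio of Krt10 moved between 2.02 and 9.15 in the anti-CTLA-4 library and between 4.26 and 8.96 in the control over the alternative settings, and it was above 0 in all of them.

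**Figure D3:**
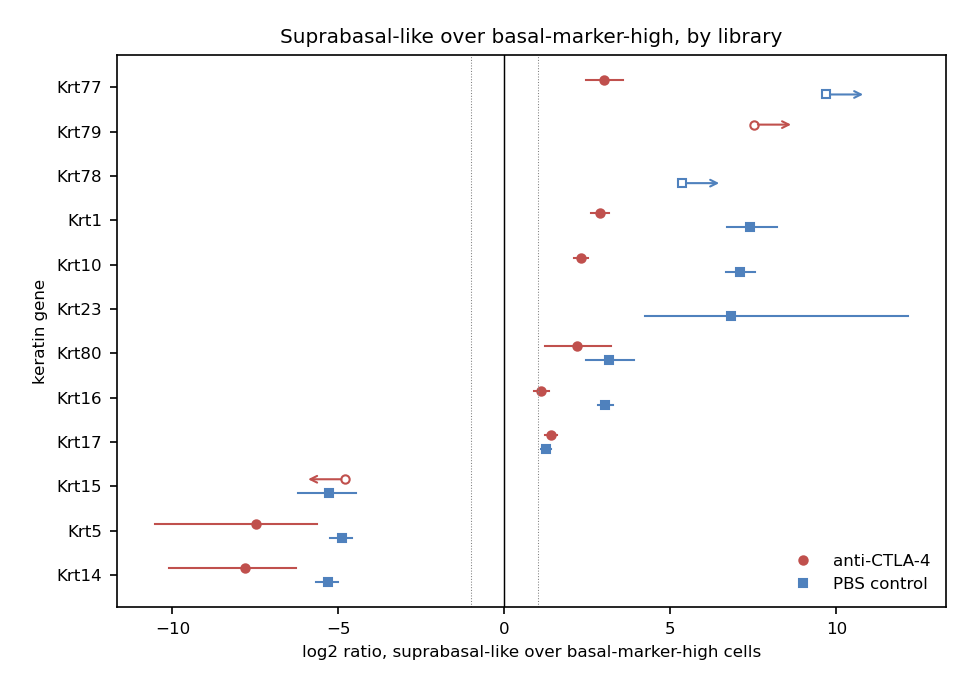
Ratio of suprabasal-like over basal-marker-high cells for each keratin with at least 20 UMIs, on a log2 axis with 95% counting intervals, red circles for anti-CTLA-4 above blue squares for PBS control; open markers with arrows are bounds at 3 counts and dotted lines mark 2-fold. Krt14, Krt5 and Krt15 lie left of 0 in both libraries, and Krt1, Krt10, Krt16, Krt17, Krt77 and Krt80 lie to the right.

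Several lower-level keratins also went with the suprabasal-like subset. Krt77 had 100 UMIs in suprabasal-like against 38 in basal-marker-high cells of the anti-CTLA-4 library, a ratio of 8.03 (5.48 to 12). In the control it had 808 against 0, at least 820-fold higher, but 2 cells held 300 and 273 of the 866 UMIs of control keratinocyte-like cells. Krt78, a type II keratin of differentiating epidermis, had 40 against 0 UMIs in the control, at least 40.6-fold higher. Krt23 had 37 against 1 UMI in the control, a ratio of 113 (19 to 4569), with 22 of its UMIs in 1 cell. Krt80, a keratin linked to desmosomes, had ratios of 4.58 (2.33 to 9.22) in the anti-CTLA-4 library and 8.87 (5.45 to 14.9) in the control. Krt79 differed between the libraries. In anti-CTLA-4 suprabasal-like cells it had 179 UMIs, 101 of them in 1 of the 6 cells, against 0 in basal-marker-high cells. In control suprabasal-like cells it stood at 0.637 per 10000 and had too few UMIs over both subsets to be tested. Control cells held Krt79 instead in subclusters 5 (30.6) and 1 (26.2), and sebocyte-like cells of both libraries held it (19.3 in anti-CTLA-4 and 6.10 in control cells).

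The keratins of wounded epidermis, Krt16 and Krt17, did not share one pattern. Krt16 was highest in suprabasal-like cells, at 42.4 per 10000 in the anti-CTLA-4 and 41.6 in the control library. Krt17 was highest in subcluster 1, at 99.2 and 66.2, with 83.2 and 47.4 in suprabasal-like cells. Their type II partners were scarcer: Krt6a had 87 UMIs in anti-CTLA-4 (1.11 per 10000) and 490 in control keratinocyte-like cells (4.44), and Krt6b had 4 and 335. In the control, the ratio of suprabasal-like over basal-marker-high cells was 2.16 for Krt6a and 34.6 for Krt6b.

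Genes that work with keratins were read from lists written with earlier results of these data known. Of the cornified envelope genes, which build the outer shell of dead keratinocytes, 3 of 3 tested were higher in suprabasal-like than basal-marker-high cells of the anti-CTLA-4 library and 10 of 11 in the control. The list's median log2 ratio was 3.50 in the anti-CTLA-4 library, and in the control 6.82, or 5.67 with the genes at 0 taken at the floor. Sprr1a, a small proline-rich envelope protein, had 1571 UMIs in suprabasal-like against 424 in basal-marker-high cells of the anti-CTLA-4 library and 2324 against 62 in the control. The protease gene Klk7 had 106 against 29 UMIs and 303 against 8. Sprr1b had 32 against 5 and 207 against 19, and Lor, the main protein of the cornified envelope, had 444 against 2 in the control. These cornified genes include markers that had named the subset, so Lor and its like are given as a description.

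Of the desmosome and filament anchor genes, which tie keratin filaments to the cell border, 5 of 14 were higher and 4 lower in anti-CTLA-4 cells, and 9 of 15 higher and 4 lower in the control, with medians of 0.31 and 1.19. Over all genes 9.42% were higher and 17.7% lower in anti-CTLA-4 cells, and 13.5% and 32.9% in the control, so 4 of 15 lower in the control is no larger a share than that of all genes. Dsp, the desmosomal linker of keratin filaments, had ratios of 4.66 in the anti-CTLA-4 library and 2.78 in the control. Jup had 1.26 and 3.70, Perp 0.945 and 2.02, and Dsc3 1.21 and 1.14. Of the keratinocyte transcription factors 5 of 11 were higher and 0 lower in anti-CTLA-4 cells, and 2 of 11 higher and 1 lower in the control, with medians of 0.94 and 0.51. Klf4, a factor of epidermal differentiation, had ratios of 14.2 and 1.69, Klf5 0.989 and 1.41, and Sox9 4.85 and 0.677. The control interval of Sox9, a factor of the hair follicle, was 0.35 to 1.22 and gives no direction. All keratinocyte stress and wound genes tested, 3 of 3 and 5 of 5, were higher in suprabasal-like cells, with medians of 3.50 and 5.02, and this list shares Sprr1a and Sprr1b with the cornified genes.

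Keratins of single-layered epithelia were found in 1 subcluster of the keratinocyte-like class. Subcluster 1 (20 anti-CTLA-4 and 19 control cells) was led by Csf3, Slpi, Upk3a, Wfdc18 and Cldn7, and stayed unnamed. Against all other keratinocyte-like cells of the same library, 6 of 21 members tested were higher by 2-fold and 6 lower in the anti-CTLA-4 library, beside 8.93% and 16.3% of 4656 genes. In the control 6 of 16 were higher and 10 lower, beside 9.41% and 15.5% of 5833 genes. Members with 0 UMIs on 1 side passed the minimum through the other alone. With UMIs on both sides, 4 of 18 anti-CTLA-4 members were higher and 5 lower, and 4 of 13 higher and 9 lower in the control. Krt7, Krt8, Krt17, Krt18 and Krt19 were higher in both libraries, Krt71 in the anti-CTLA-4 library and Krt79 in the control.

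Krt8, the type II keratin of single-layered epithelia, had 375 UMIs in subcluster 1 against 0 in the other anti-CTLA-4 keratinocyte-like cells, and 326 against 0 in the control, at least 453-fold and 788-fold higher. Krt18, its partner, had 352 against 5 UMIs and 155 against 4, ratios of 255 (108 to 791) and 281 (108 to 1044). Krt19, a type I keratin with no fixed partner, had 305 against 0 and 416 against 0 UMIs. Krt7, a keratin of ducts and glands, had 93 against 1 and 111 against 2.

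Few cells held all of these molecules. Of the 375 Krt8 UMIs of anti-CTLA-4 keratinocyte-like cells, 258, 79 and 25 came from 3 cells, and of the 326 control UMIs 152, 103 and 38. A single cell held 304 of the 305 Krt19 UMIs of the anti-CTLA-4 library. Any of Krt7, Krt8, Krt18 and Krt19 was found in 11 of 99 anti-CTLA-4 cells, with 1125 of 1131 UMIs in 8 cells of subcluster 1, and in 9 of 168 control cells, with 1008 of 1014 UMIs in 5 cells of subcluster 1. All 4 cells with Krt8 in each library also had Krt18. Merkel cells are the skin cells best known for Krt8, Krt18 and Krt20, and of their markers only Piezo2 and Sox2 were seen. Piezo2 had 2 UMIs in anti-CTLA-4 and 11 in control keratinocyte-like cells, and 11 of these 13 lay in 4 of the 39 cells of subcluster 1. Sox2 had 0 and 3 UMIs, none of them in subcluster 1, and Atoh1, Isl1 and Chga had 0. Krt17, by contrast, was spread over many cells, and its ratio of subcluster 1 over the others was 3.09 (2.89 to 3.30) in the anti-CTLA-4 library and 3.10 (2.87 to 3.36) in the control.

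Hair keratin UMIs of keratinocyte-like cells came almost all from the anti-CTLA-4 library. The 15 members of the inner root sheath, its companion layer and the hair shaft had 519 UMIs in 19 of 99 anti-CTLA-4 cells (19.2%, 12 to 28.3) and 8 UMIs in 5 of 168 control cells (2.98%, 0.973 to 6.81). Subcluster 8, with 10 anti-CTLA-4 cells and no control cell, held 314 of the 519 UMIs in 9 of its cells. It was led by S100a3, Ltb, Cd52, Gprc5d and Hoxc13, of which Hoxc13 is a regulator of hair keratin genes and had 19 UMIs in 4 of the 10 cells. The T cell genes among its leading genes came from few cells: Cd3g had 17 UMIs and Cd3e 14, each in 1 of the 10 cells, and the part of such cells in the results was not tested. No subcluster could be named as hair follicle, so no hair follicle subset was set against other keratinocytes. Putting each cell in the subset of its highest marker score instead gave 19 anti-CTLA-4 and 37 control hair follicle cells, whose keratins were not analysed further.

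In subcluster 8 against all other keratinocyte-like anti-CTLA-4 cells, 6 of 21 members tested were higher by 2-fold and 12 lower, beside 14.8% and 21.2% of 4656 genes. Of the 12 lower ones 9 had 0 UMIs in subcluster 8, and of the 12 members with UMIs on both sides 6 were higher and 3 lower. Krt25, a type I keratin of the inner root sheath, had 115 UMIs in subcluster 8 against 82 elsewhere, 42 of these in the shallow subcluster 5, a ratio of 10.4. Its partner of the inner root sheath, Krt71, had 86 UMIs in 2 cells, 71 of them in 1 cell of subcluster 1. Krt28 (ratio 26.7) and Krt27 (16 UMIs in 8 cells, at most 4 in a cell) belong to the same layer. Krt75, of the companion layer, had 19 against 1 UMI. Of the hair shaft keratins, Krt35 had 54 against 10 UMIs and Krt87 38 against 6, while Krt31 had 15 UMIs, all in 1 cell. In control keratinocyte-like cells Krt25, Krt28, Krt31, Krt35, Krt71 and Krt87 had 0 UMIs, and 0 of 168 cells allows a share of cells with a UMI of up to 1.79% at a floor of 3 counts (exact upper limit 2.17%).

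Krt20 was the keratin of the tumour-like cells. In the control it had 23554 UMIs in 2560 tumour-like cells, 3.30 per 10000 (3.25 to 3.34), and a UMI in 79.6% of them (78.0 to 81.1). T cell-like cells of the control had a Krt20 UMI in 6.08% of cells, and after thinning each cell to 1000 UMIs the shares were 24.2% of tumour-like and 1.85% of T cell-like cells. The 5 tumour-like clusters ran from 2.71 to 3.83 per 10000. Tumour-like control cells with a Krt20 UMI had a median of 30786 UMIs and the 523 cells without one a median of 12291. In the anti-CTLA-4 library Krt20 had 37 UMIs in 7 of 20 tumour-like cells (35.0%, 15.4 to 59.2), 0.579 per 10000, beside a median of 28589.5 UMIs per cell. Crabp1, the leading tumour-like marker, had a UMI in 90% of those 20 cells and in 99.1% of the control's.

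Krt10, Krt80 and Krt12 were also found in tumour-like control cells. Krt10 had 2081 UMIs, 0.291 per 10000 in 49.1% of cells, which is 0.00724 of its level in keratinocyte-like control cells. Its level was even over the 5 clusters, 0.271 to 0.323 per 10000, and fibroblast-like cells were near it, with 0.240 in the control. Krt80 had 496 UMIs in 15.1% of tumour-like control cells (0.0694 per 10000), below its levels in control keratinocyte-like (1.52) and monocyte/macrophage-like cells. Krt12, a keratin known from the corneal epithelium, had 117 UMIs in 105 cells (4.10%), of which 99 also had Krt20, and none in any class but tumour-like and unnamed clusters. The basal keratins Krt14 and Krt5 had 279 and 220 UMIs there, 0.0390 and 0.0308 per 10000. The keratins of colon surface epithelium other than Krt20 were nearly absent, with 7 UMIs of Krt8, 7 of Krt18 and 1 of Krt19 in 2560 cells.

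Against keratinocyte-like cells of the same library, tumour-like control cells were higher for 1 of 18 members tested and lower for 16, beside 18.3% and 20.9% of 12825 genes at 2-fold. With UMIs on both sides 1 of 16 was higher and 15 lower. The higher one was Krt20, at 30.3-fold (17.3 to 58.6). Krt12 had 117 UMIs against 0, but the far larger tumour-like total puts its floor ratio at 0.602, so no direction is given. The median log2 ratio of the members was -11.51 (-11.09 at the floor), beside 0.00 for all genes. The genes around keratins were lower as well: 15 of 16 desmosome genes, 12 of 12 cornified genes and 12 of 12 keratinocyte transcription factors. Of the other intermediate filament genes 4 of 8 were higher and 1 lower, with Vim, the vimentin of mesenchymal cells, at 779349 UMIs in tumour-like against 374 in keratinocyte-like cells, 32.2-fold higher. The nuclear lamins stood near 1, with Lmna at 0.935, Lmnb1 at 0.867 and Lmnb2 at 1.1. Markers of colon epithelium were low beside this: Cdx2 had a UMI in 8.20% of tumour-like control cells, Epcam had 28 UMIs in all and Cldn3 had 0.

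The genes of 3 of these keratins are neighbours. On chromosome 11 of GRCm38, all on the minus strand, Krt10 lies at chr11:99385254-99389364, Krt12 at chr11:99415666-99422259 and Krt20 at chr11:99428403-99438150. The gaps are 26301 bases between Krt10 and Krt12 and 6143 bases between Krt12 and Krt20. Their 60 bases before the transcription start are shown because these neighbours include the keratins with the most UMIs in tumour-like control cells, Krt20 and Krt10, and Krt12, which had no UMI in any other named class. Transcription starts for these windows are from RefSeq on GRCm38.p6. The windows are chr11:99438154-99438213 for Krt20, chr11:99389365-99389424 for Krt10 and chr11:99422260-99422319 for Krt12, each 5′ to 3′ on the minus strand, with the motif TATAAA in capitals.
Krt20: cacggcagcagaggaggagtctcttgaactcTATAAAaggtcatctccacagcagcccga
Krt10: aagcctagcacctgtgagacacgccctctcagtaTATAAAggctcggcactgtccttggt
Krt12: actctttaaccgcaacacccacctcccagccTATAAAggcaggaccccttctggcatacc
The motif TATAAA, searched on both strands, starts 29 bases before the start in Krt20 and Krt12 and 26 bases before it in Krt10. It is found in the same window of 1289 of 32851 promoters (3.92%). The windows of Krt5, Krt8 and Krt18 do not hold these letters. For Krt8 and Krt18 the RefSeq start differs from the GENCODE start by -140 and 36 bases, so their windows depend on the start chosen.

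**Figure D4:**
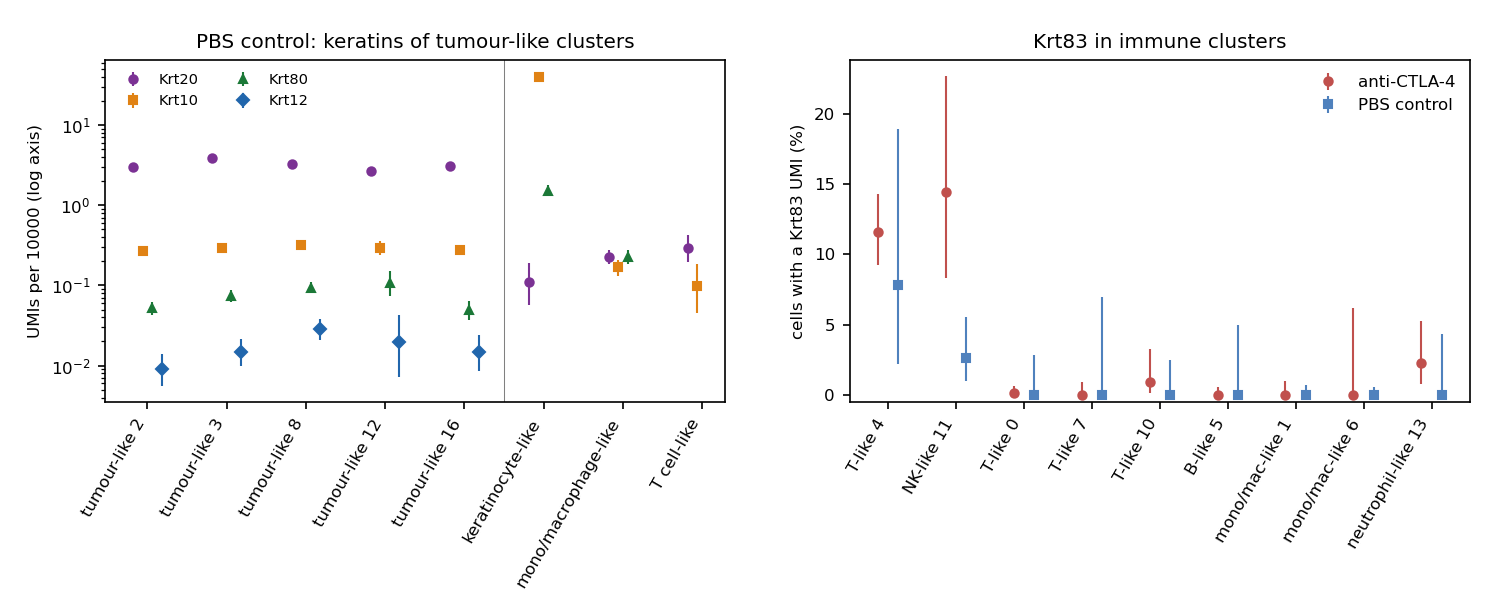
Left, levels of Krt20, Krt10, Krt80 and Krt12 in the 5 tumour-like clusters and 3 other classes of the PBS control (UMIs per 10000, log axis, 95% counting intervals, 0 not drawn); right, share of cells with a Krt83 UMI by immune cluster, anti-CTLA-4 left of PBS control, with exact binomial intervals. Krt20 lies about 10 times above Krt10 in every tumour-like cluster, and Krt83 has its highest shares in T cluster 4 and NK cluster 11 of the anti-CTLA-4 library. The wide interval of control T cluster 4 (4 of 51 cells) overlaps both.

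Krt83, a type II hair shaft keratin, had most of its UMIs in lymphocytes. Of its 160 UMIs in kept cells 108 (67.5%) were in T cell-like cells, and 12 were in anti-CTLA-4 keratinocyte-like cells, 10 of them in 1 cell. In T cluster 4, led by Cxcr6, Icos and Pdcd1, genes of activated and resident T cells, a Krt83 UMI was found in 76 of 657 anti-CTLA-4 cells (11.6%, 9.22 to 14.3) and 4 of 51 control cells (7.84%, 2.18 to 18.9). Per 10000 UMIs Krt83 stood there at 0.281 (0.227 to 0.343) in anti-CTLA-4 and 0.381 (0.174 to 0.724) in control cells. Thinned to 1000 UMIs, control T cluster 4 had it in 4.08% of cells (0.498 to 14.0), so the libraries were not told apart in this cluster. In NK cluster 11 it was found in 15 of 104 anti-CTLA-4 cells (14.4%, 8.30 to 22.7) and 6 of 231 control cells (2.60%, 0.959 to 5.57). T cluster 0 of the anti-CTLA-4 library had it in 1 of 862 cells. Neutrophil-like cells had it in 5 of 219 anti-CTLA-4 cells (2.28%, 0.745 to 5.25) and 0 of 83 control cells, and B cell-like and monocyte/macrophage-like cells of both libraries had 0 UMIs. Thinned to 1000 UMIs, the anti-CTLA-4 shares were 3.57% (2.28 to 5.31) in T cluster 4, 2.06% (0.251 to 7.25) in NK cluster 11, 1.71% (0.355 to 4.93) in neutrophil-like cells and 0 of 836 cells in T cluster 0. T clusters 4 and 0 thus differed by more than counting error also when thinned, while NK cluster 11 and neutrophil-like cells were not told apart at that depth.

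Within T cluster 4 of the anti-CTLA-4 library, Krt83 was found in 35 of 236 cells with Cd4 and no Cd8 UMI (14.8%), 15 of 268 with Cd8 and no Cd4 (5.60%) and 24 of 136 with neither (17.6%). Barcodes with a TCR beta chain had it in 59 of 524 cells (11.3%) and those without in 17 of 133 (12.8%). In the control all 4 Krt83 cells of the cluster were among its 10 barcodes without a TCR beta chain. Krt81, Krt83 and Krt86 are near-identical copies, and their separate counts are uncertain: Krt81 had 1 UMI in kept cells and Krt86 9, 4 of them in neutrophil-like cells.

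Krt80 and Krt222 were also found in some leukocyte classes and at or near 0 in others. Krt80 had a UMI in 3.86% of anti-CTLA-4 and 8.12% of control monocyte/macrophage-like cells, at 0.0808 and 0.228 per 10000, and 0 UMIs in T cell-like cells of both libraries. Krt222 had 9 UMIs in 8 of 93 plasma cell-like cells and 6 in B cell-like anti-CTLA-4 cells, of 21 UMIs in all.

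Other keratin UMIs in leukocytes differed between the libraries. After thinning to 1000 UMIs, Krt5 or Krt14 had a UMI in 0.628% of anti-CTLA-4 and 8.95% of control T cell-like cells, 0.654% and 10.1% of B cell-like cells, and 0.551% and 7.2% of monocyte/macrophage-like cells. Neutrophil-like cells were highest, with 1.71% and 25%, the control share over 32 cells. In control T cell-like cells Krt14 had 41 and Krt5 31 UMIs, and in control keratinocyte-like cells 12955 and 10541. Any member had a UMI in 3.91% of thinned anti-CTLA-4 T cell-like cells (3.12 to 4.84) and 14.8% of control ones (11.1 to 19.2), and unthinned in 11.4% and 29.4%. Krt20 had 0 UMIs in anti-CTLA-4 and 27 in control T cell-like cells, beside 20 and 2560 tumour-like cells. Apart from Krt80 and Krt83, keratin UMIs in control leukocytes are not read here as expression, and their source was not tested. Krt10 was less confined to keratinocyte-like cells than Krt14. In the anti-CTLA-4 library these cells held 1365 of its 1483 UMIs, against 3581 of 3625 for Krt14.

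Set against the control, anti-CTLA-4 keratinocyte-like cells had lower basal and suprabasal keratins and higher hair keratins. Of 22 members tested 11 were higher by at least 1.5-fold and 8 lower, beside 20.8% higher and 21.7% lower among 7550 genes, and 3 lay between (Krt7, Krt16 and Krt19). Of the higher ones 5 (Krt25, Krt28, Krt35, Krt71 and Krt87) had 0 control UMIs and passed the minimum of 20 UMIs through the anti-CTLA-4 library alone. Without them 6 of 17 were higher and 8 lower (median log2 ratio 0.04). The median over all 22 was 0.48 and that of all genes 0.00, while the sum of all members had a log2 ratio of -0.81, of opposite sign. The plot of these ratios sets the whole class beside its subclusters.

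**Figure D5:**
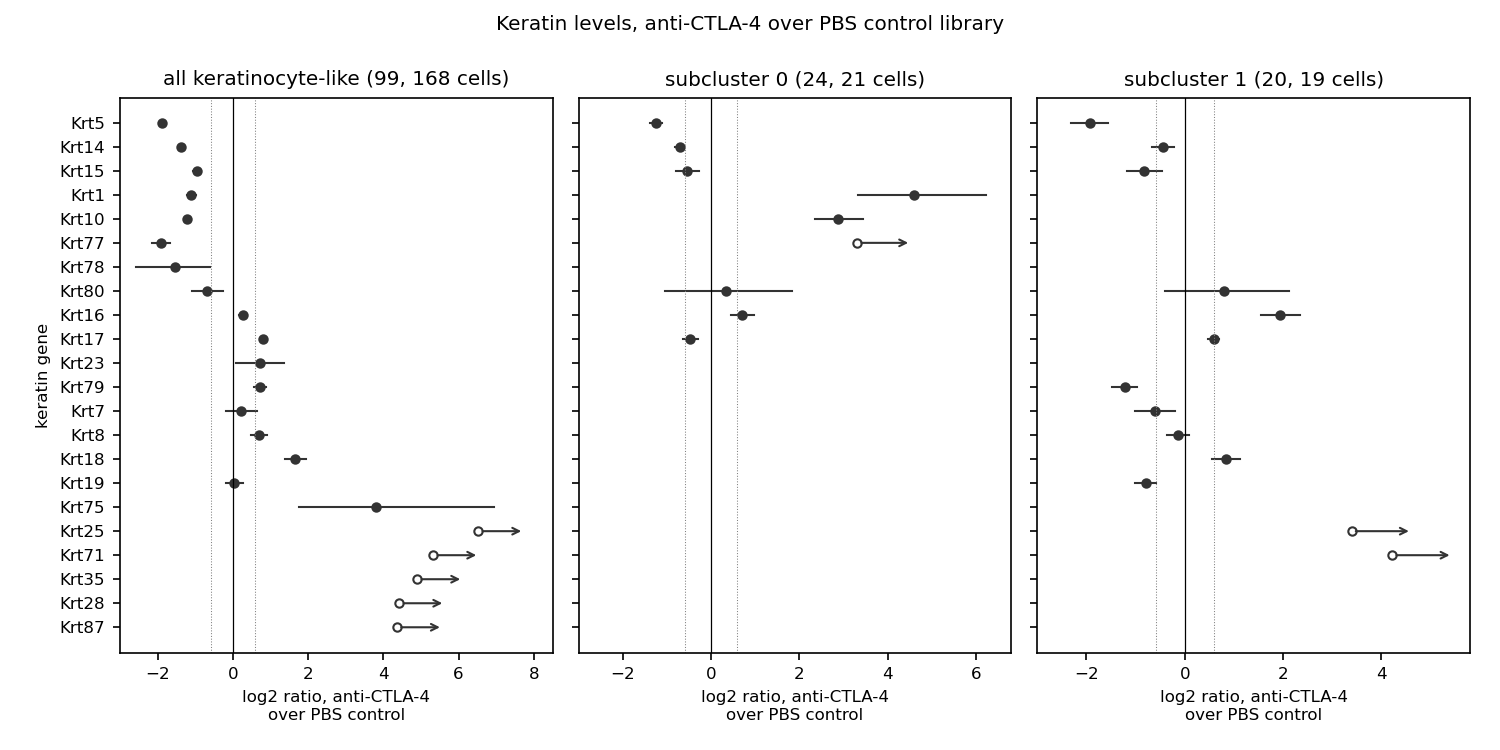
Ratio of anti-CTLA-4 over PBS control for each keratin with at least 20 UMIs, in all keratinocyte-like cells and in subclusters 0 and 1, on a log2 axis with 95% counting intervals; open markers with arrows are bounds at 3 counts and dotted lines mark 1.5-fold. Krt5 lies left of 0 in each panel, whereas Krt1 and Krt10 lie left in the whole class and right in subcluster 0.

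The lower members were Krt1, Krt5, Krt10, Krt14, Krt15, Krt77, Krt78 and Krt80. Krt5 had 2023 UMIs in anti-CTLA-4 against 10541 in control keratinocyte-like cells, a ratio of 0.269 (0.257 to 0.282), and Krt14 a ratio of 0.388 (0.374 to 0.403). The ratios of Krt1, Krt10 and Krt15 were 0.465, 0.432 and 0.514. Krt77 had 165 against 866 UMIs and Krt78 12 against 49, ratios of 0.267 and 0.344, and Krt80 had 75 against 168, a ratio of 0.627.

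Krt17, Krt79, Krt8, Krt18 and Krt23 and 6 hair keratins were higher. Krt17 had 3664 UMIs in anti-CTLA-4 against 2952 in control cells, a ratio of 1.74 (1.66 to 1.83), and Krt79 660 against 563, a ratio of 1.65. The ratio of Krt8 (1.61) rests on 4 cells in each library. That of Krt18 (3.15) rests on 10 anti-CTLA-4 and 7 control cells, of which the top cell held 52.7% and 41.5% of its UMIs. Krt25 had 197 UMIs against 0, at least 92.2-fold higher, Krt71 86 against 0, Krt35 64 against 0, Krt28 46 against 0, Krt87 44 against 0 and Krt75 20 against 2. The partners of the wound keratins went the other way, with Krt6a at 0.249 and Krt6b at 0.0168, beside Krt16 at 1.20. For Krt6b, 3 cells held 71.0% of the 335 control UMIs, and the top cell lay in subcluster 4, which held 0 anti-CTLA-4 cells. Krt6a stood at 0.742 (0.520 to 1.06) in subcluster 1 and 0.142 (0.0356 to 0.419) in subcluster 0. Level per cell and number of such cells cannot be told apart in these class-wide ratios.

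The subclusters with at least 10 cells in each library, 0, 1, 2 and 5, gave the same direction for Krt5. For Krt1 and Krt10 subclusters 0, 2 and 5 gave another, and in subcluster 1 both had too few UMIs to be tested. In subcluster 0 (24 anti-CTLA-4 and 21 control cells) 4 of 9 members were higher and 2 lower, beside 16.5% and 23.9% of 2122 genes. With UMIs on both sides 3 of 8 were higher and 2 lower. Krt5 stood at 0.421 (0.386 to 0.460) and Krt14 at 0.610 (0.569 to 0.653) there, while Krt1 had 154 against 5 UMIs, a ratio of 24.1 (10.1 to 75.2), and Krt10 310 against 33, a ratio of 7.35 (5.12 to 10.9). In subcluster 2 (13 and 24 cells) 2 of 9 members were higher and 4 lower, beside 19.2% and 19.3% of 1320 genes, with Krt5 at 0.591, Krt14 at 0.464, Krt1 at 1.75 (1.43 to 2.15) and Krt10 at 1.63 (1.40 to 1.92). In subcluster 5 (13 and 17 shallow cells) 4 of 9 were higher and 4 lower, beside 16.5% and 47.1% of 310 genes, with Krt5 at 0.0555 and Krt10 at 6.15. With UMIs on both sides 3 of 8 were higher and 4 lower there. The class-wide ratios of Krt1 and Krt10 thus had the opposite sign to those of subclusters 0, 2 and 5. Single cells held 349, 234 and 111 of the 1365 Krt10 UMIs of anti-CTLA-4 keratinocyte-like cells. For Krt1 they held 205, 147 and 113 of 869. The top cell of each lay in subcluster 6, but few cells may also carry the sums of subclusters 0 and 2, whose intervals do not cover this. Of the 4433 control UMIs of Krt10, 2050 came from subcluster 4 and 2062 from subcluster 6. Subcluster 4 held 0 anti-CTLA-4 and 30 control cells, and subcluster 6 held 6 and 15, so a lower level per cell and fewer such cells cannot be told apart in the class-wide ratio.

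In subcluster 1 (20 anti-CTLA-4 and 19 control cells) 5 of 13 members were higher and 5 lower, beside 26.3% and 22.7% of 2181 genes. With UMIs on both sides 3 of 11 were higher and 5 lower, and the higher share is then near that of all genes. Krt16 had 320 UMIs in anti-CTLA-4 against 66 in control cells, a ratio of 3.82 (2.92 to 5.05). Krt18 was at 1.79, and Krt25 and Krt71 had 40 and 71 UMIs against 0. The 71 Krt71 UMIs lay in 1 cell. Krt5 (0.262), Krt79 (0.427), Krt15 (0.565), Krt19 (0.577) and Krt7 (0.660) were lower.

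The lists of genes that work with keratins were counted in the same comparison, in which 20.8% of all genes were higher and 21.7% lower. Of the cornified genes 0 of 12 were higher and 10 lower in anti-CTLA-4 keratinocyte-like cells, with a median log2 ratio of -1.72 (-1.78 at the floor): Lor had 2 against 458 UMIs and Sprr1b a ratio of 0.349, with Sprr1a at 1.45 and Klk7 at 1.39. Within subclusters few could be tested: 2 of 2 were higher in subcluster 0, 2 of 2 in subcluster 1 and 1 of 1 in subcluster 5. In subcluster 2, 1 was higher and 1 lower. Subcluster 4 held 0 anti-CTLA-4 and 30 control cells, and suprabasal-like subcluster 6 held 6 and 15. Level per cell and number of such cells thus cannot be told apart in these class-wide counts. Of the desmosome genes 1 of 17 was higher and 6 lower (median -0.43), with Perp at 0.614, Dsp at 0.661, Dsc3 at 0.799 and Jup at 1.001. In subcluster 0, 5 of 12 desmosome genes were higher and 0 lower, and in subcluster 1, 1 of 11 was higher and 4 lower. Of the transcription factors 5 of 13 were higher and 1 lower (median 0.17), with Sox9 at 1.81, Klf5 at 1.58 and Klf4 at 0.886. Of the stress and wound genes 1 of 7 was higher and 3 lower (median -0.32), too few to read apart from those shares. Of the other intermediate filament genes 0 of 3 were higher and 1 lower (median -0.39), which was Vim at 13 against 374 UMIs, a gene very abundant in control tumour-like cells, and the part of free RNA in that ratio was not tested. Lmna stood at 0.762 and Lmnb1 at 0.881.

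Type I keratin UMIs outnumbered those of type II in each of these cell groups. The ratio was 2.69 in anti-CTLA-4 (11927 against 4442 UMIs) and 1.64 in control keratinocyte-like cells (25085 against 15272), or 2.63 and 1.56 with Krt6a and Krt6b added. In subcluster 1 it was 3.71 and 1.92, in subcluster 8 of the anti-CTLA-4 library 4.73, and in tumour-like control cells, where Krt20 dominates, 32.7. UMI counts give RNA molecules and not protein.

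The members not yet named were rare. Krt4, a keratin of the mouth and oesophagus, had 18 UMIs in kept control cells, 16 of them in 1 keratinocyte-like cell. Krt42 had 9 UMIs in 6 anti-CTLA-4 keratinocyte-like cells, and Krt32 had 11 and Krt34 7 UMIs in kept cells. Krt2, Krt24, Krt26, Krt36, Krt88 and Krt90 had between 1 and 7. No order among these members can be read at such counts.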

How the data were processed

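Per the labels' protocols, cells were run with the 5' immune profiling kit, version 1.1; the submitters' processing notes name Cell Ranger 5.0.0, mm10 and GRCm38. The authors deposited UMI counts for 32285 genes in each barcode, without normalization; genes sharing a symbol were summed to 32245. TCR files served only to list barcodes with a deposited productive beta chain. Barcodes under 200 genes or over 15% mitochondrial UMIs were dropped. Scrublet marked 1 anti-CTLA-4 and 0 control barcodes, so the 137 and 248 highest scores (3.35% and 4.52%, the expected rates) were removed. Both libraries were clustered together (scanpy 1.11.5, 2000 variable genes without keratins, 30 components, 15 neighbours, Leiden resolution 1, leidenalg 0.10.2). A class needed 3 markers in 20% of cells and a mean log2 of 1, a keratinocyte subset 0.9, a limit set after the data were seen. Intervals are exact (scipy 1.17.1): Poisson for levels, Clopper-Pearson for shares, conditional binomial for ratios. Medians of log2 ratios add 0.5 UMI. Named are members with at least 50 UMIs, preset pairs, rarer members by count, and 4 genes per list with the most keratinocyte-like UMIs, of which 1 is not reported here. Members, lists and tests were chosen with earlier results of these data known. Coordinates are 1-based, those of genes from GENCODE M21 on GRCm38 and those of promoter windows from RefSeq.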

Additional observations from a re-analysis of the deposited data

Results flagged for a closer look

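Krt16 differed in its relation to subcluster 1 between the libraries. Its ratio of subcluster 1 over the other keratinocyte-like cells was 1.20 in the anti-CTLA-4 library and 0.333 in the control, above 1 in one and below 1 in the other. Krt16 had 320 UMIs in subcluster 1 of the anti-CTLA-4 library and 66 in that of the control, at 18.8 and 4.94 UMIs per 10000, and 1 cell of that subcluster held 173 of the anti-CTLA-4 UMIs. With 1 library per group, the difference was not tested.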

How the results depend on the processing

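Over 13 results 92 alternatives were computed, of which 55 lay within the counting interval of the value reported and 37 lay outside. Of the log2 ratios 0 changed sign, while levels, shares and type ratios are positive amounts and could not. The ratios of Krt1 and Krt10 between the libraries were not among the 13 results. With a mitochondrial limit of 10%, keratinocyte-like keratin stood at 212 per 10000 in the anti-CTLA-4 library, the log2 ratio of suprabasal-like over basal-marker-high cells at 4.89 (anti-CTLA-4) and 8.21 (control) for Krt10 and -4.89 (control) for Krt14, the type I to type II ratio at 2.59 and 1.69, and the log2 ratio of anti-CTLA-4 over control for Krt14 at -1.30. With at least 500 genes, these were 201 for the anti-CTLA-4 level, 5.68 and 7.86 for Krt10, 2.86 for the anti-CTLA-4 type ratio and -0.87 for all members between libraries. With doublets kept, levels were 203 and 356, Krt10 2.03 and 6.13, control Krt14 -4.50 and the control type ratio 1.70. Krt10 was 9.15 and 8.96 at resolution 2.0. With keratins kept in the clustering it was 6.78 and 5.30, and anti-CTLA-4 Krt14 -5.12. With subsets from marker scores per cell it was 3.65 and 4.26, and Krt14 -4.60 and -2.03. Thinned to 1000 UMIs, Krt10 was 2.02 and 5.88, and between libraries Krt14 -1.22 and all members -0.63. Between libraries Krt14 was -0.98 in basal-marker-high and -3.47 in suprabasal-like cells alone, and all members -0.76 and -0.23. Of control barcodes with a TCR beta chain 10.3% had a keratin UMI after thinning. With Krt6a and Krt6b, the control type ratio was 1.56. The causes of these shifts were not tested. Resolution 0.5 gave no basal-marker-high subset, and anti-CTLA-4 suprabasal-like Krt14 had 0 UMIs, and so no value, with the 10% limit and after thinning. For 55 keratinocyte-like cells the best and next marker scores lay within 0.25. Depth limits the rare members, and cell number the 20 anti-CTLA-4 tumour-like cells. With no hair follicle subset as reported, its alternatives were not run. No paired analysis was possible because each group had 1 library, so no replicate number could pair samples.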
